A study of Mytilus galloprovincialis with 16 samples.

Results

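The digestive gland of female mussels (Mytilus galloprovincialis) was compared between stages 4 and 3 of gonad development. The members were chosen from the labels: the female channel of the 4 stage 3 arrays and of the 4 stage 4 arrays, 8 of the 16 arrays in all. On every array the gland RNA of 1 female was hybridised against that of 1 male of the same stage, and both carried a different fluorescent dye. Transcripts of 1920 cDNA clones were measured, each on 2 spots that were averaged. Values are log2 signals of the female channel after normalisation of the arrays.

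All mussels were wild animals from the lagoon of Bizerta in Tunisia and were not treated. Per the labels, each RNA came from 1 individual. Stage 3 mussels were sampled in February and stage 4 mussels in March of the same year, so that gonad stage and sampling month cannot be told apart. Females carried Cy5 on 2 and Cy3 on 2 of the stage 3 arrays. At stage 4, the arrays of replicates 2 and 4 had nearly the same spot errors: how far each female spot lay from the mean of its clone correlated at r = 0.820 between them, while the remaining pairs of arrays (120 in all) gave r = -0.0596 to 0.195. These arrays were therefore averaged and counted as 1 replicate, which left stage 4 with n = 3 (1 female in Cy5, 2 in Cy3) against n = 4 at stage 3.

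The digestive gland of bivalves takes up food particles, digests them inside its cells and stores lipid and glycogen. In mussels the gametes ripen mainly in the mantle, which draws on these reserves, and ripe gametes are shed into the water at spawning. A comparison of neighbouring late stages in the gland therefore asks whether its transcripts differ between females whose gonads are at the third and at the fourth stage. Each animal was sampled once, so that none was followed from one stage to the next. RNA of a whole gland was measured, in which fewer cells of a type and less RNA per cell cannot be told apart. The files pair none of the clones with a gene name, so that clones are given by identifier only, and neither gene groups nor marker genes of the gland or of germ cells were examined.

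Between 19.4% and 48.4% of clone spots exceeded the local background by 2 background SDs in the female channel of the 8 arrays. The same was true of 0.493% to 0.987% of blank spots. Duplicate spots of a clone correlated at r = 0.866 to 0.962 across clones. The share above background was 40.4%, 23.7%, 48.4% and 19.4% in stage 3 replicates 1 to 4. At stage 4 it was 23.2% in replicate 1, 40.1% in the averaged replicate and 24.2% in replicate 3. Low and high arrays were present at both stages and the ranges overlapped. The mean was 29.2% ± 9.49 (SD, n = 3) at stage 4 and 33.0% ± 13.7 (SD, n = 4) at stage 3. The difference of -3.76 percentage points was smaller than the spread between replicates (exact permutation test over 35 arrangements, two-sided p = 0.714, smallest possible p 0.0286), and its sign turned when 1 replicate was left out or when 1 background SD was required.

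No clone passed the threshold between the stages. With limma and Benjamini-Hochberg adjustment over 1920 clones, 0 clones (0%) had an adjusted p under 0.05, and the smallest adjusted p was 0.973. The smallest unadjusted p was 0.00101. At an unadjusted p under 0.05, 72 clones (3.75%) were found, 39 higher and 33 lower at stage 4. A B statistic over 0, the log odds of a difference that the study's methods also used as a threshold, was likewise reached by 0 clones. In the female gland the replicates of both stages lay fully apart for 71 clones (3.7%), with 37 (1.93%) higher and 34 (1.77%) lower at stage 4.

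The same fit called clones in every other comparison of female stages. Stage 4 differed from stage 2 in 127 clones (6.61%), 41 higher and 86 lower at stage 4, and from stage 1 in 67 clones (3.49%), 27 higher and 40 lower. Stage 3 differed from stage 2 in 201 clones (10.5%), 95 higher and 106 lower, and from stage 1 in 189 clones (9.84%), 100 higher and 89 lower. Between stages 2 and 1, 236 clones (12.3%) were called, 132 higher and 104 lower at stage 2. These comparisons share their samples and the estimate of the spread, so that their counts are not independent. Male glands on the same arrays gave 0 clones (0%) between stages 4 and 3 in limma (1 clone without stage 3 replicate 4), 40 at an unadjusted p under 0.05 and 0 with a B over 0, with 0.999 as the smallest adjusted p. The other male comparisons called 0.417% (stages 4 and 2), 5% (4 and 1), 1.98% (3 and 2), 9.53% (3 and 1) and 3.75% (2 and 1) of clones. Counts against stage 1 rested in part on single replicates. Stage 4 against stage 1 gave 15 clones without stage 4 replicate 1 and 120 without stage 3 replicate 4, which enters that comparison only through the shared spread and the dye term. Stage 3 against stage 1 gave 95, 119 and 118 clones without stage 3 replicate 1, 2 or 3, and 256 without stage 3 replicate 4. Replicates of stages 1 and 2 were not left out in turn.

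**Figure D1:**
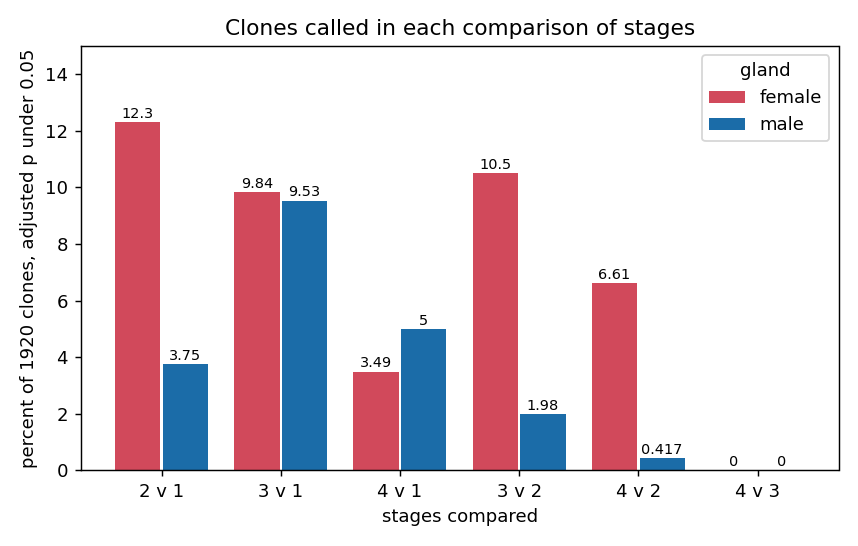
Percent of the 1920 clones at an adjusted p under 0.05 (limma) in each of 6 comparisons of stages, later against earlier stage, in female and male glands. Stage 4 against stage 3 stands at 0 in both sexes, whereas the other female comparisons lie between 3.49% and 12.3%.

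The share of variation that lay between stages was also lowest for this pair of female stages. Over the 7 female replicates of stages 3 and 4, 16.8% of the summed variation of all clones lay between the stages, where the stage took 1 of 6 degrees of freedom (16.7%). It was 54.0% for stages 4 and 2, also with 1 of 6, and 56.6% for stages 3 and 2, with 1 of 7 (14.3%). For stages 4 and 1 it was 32.1%, for stages 3 and 1 37.3% and for stages 2 and 1 41.9%. The difference between the stage means had a root mean square of 0.33 log2 units over clones, against an SD between replicates of 0.43 at stage 3 and 0.43 at stage 4 (root mean square over clones). The female replicates of 1 stage were thus spread more widely than the means of stages 3 and 4 lay apart.

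Sizes of change were small for most clones. The fitted log2 change had a median of 0.00, and its absolute value a median of 0.15 and a 90th percentile of 0.54. It ranged from -1.29 to 1.53. As fitted, 42 clones were past 2-fold, 32 higher and 10 lower, and of these 11 were above background on all 8 arrays. The 95% interval of the change lay within 2-fold in both directions for 1460 clones (76.0%), and it reached a median of 0.51 log2 units to either side of the fitted value. For the 460 clones left, a change past 2-fold in at least 1 direction lay inside the interval.

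Signal strength bore on this precision. In the female channel 269 clones were above background on all 8 arrays, 1052 on some of them and 599 on none. Clones above background on all 8 arrays had wider intervals (a median of 0.71 to either side), and 141 of the 269 were held within 2-fold. The background correction adds an offset of 50 intensity units, which compresses log2 differences at low signal, so that a narrow interval of a dim clone does not bound its true change. Presence calls gave little that separated the stages. Of the 1920 clones, 0 were above background on all 4 stage 4 arrays and on no stage 3 array, and 1 clone showed the reverse. Allowing 1 array of the other stage, the counts were 7 and 1. In these counts the arrays of stage 4 replicates 2 and 4 stood apart, although they share spot errors and were otherwise counted as 1 replicate.

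**Figure D2:**
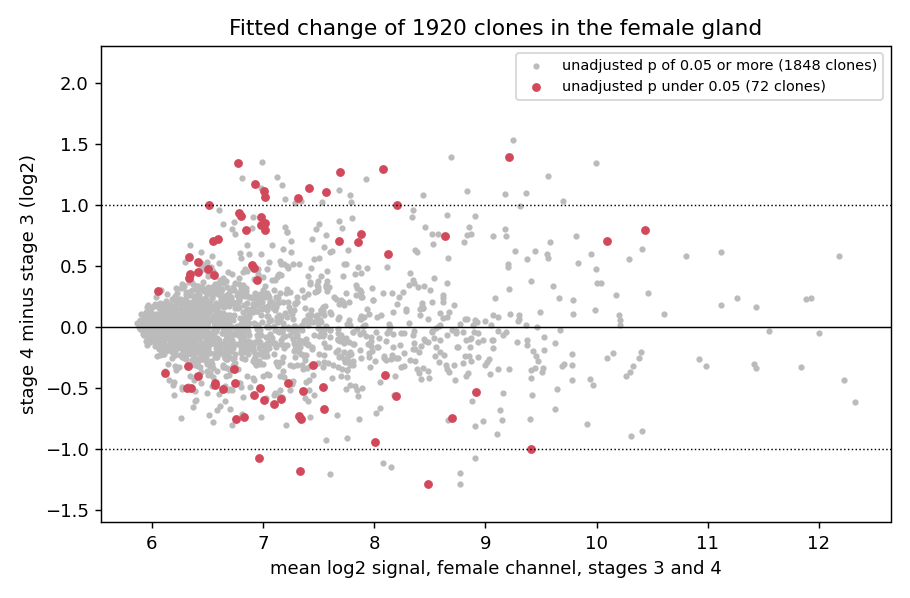
Fitted log2 change of the female signal, stage 4 minus stage 3, against the mean log2 signal of both stages, 1 point per clone, with dotted lines at 2-fold. The 72 clones at an unadjusted p under 0.05 (red) lie on both sides of 0 and among clones of low as well as high signal, and none passed after adjustment.

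Clones with the smallest unadjusted p in each direction are given as values, since none passed the test. Their sizes depend on the background correction, being smallest without one and, except for Myt01-002A05, largest with plain subtraction. Myt01-005B05 had female log2 signals of 7.12, 6.24, 6.55 and 6.30 in stage 3 replicates 1 to 4. At stage 4 it was at 7.65 in replicate 1, 7.03 in the averaged replicate and 7.75 in replicate 3. Stage 3 replicate 1 lay above the lowest stage 4 value, so that the groups overlapped. The fitted difference was 0.85 (SE 0.20, 95% interval 0.42 to 1.29, limma adjusted p = 0.973), against 0.33 without background correction and 1.68 with plain subtraction. This clone was above background on all 4 stage 4 arrays and on 2 of the stage 3 arrays. Its females of stage 2 averaged 7.88 ± 0.30 (SD, n = 4) and those of stage 1 7.01 ± 0.29 (SD, n = 4), so that stage 3 had the lowest mean of the 4 stages.

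For Myt01-001D12 the stage 3 females were at 6.38, 6.17, 6.74 and 6.41, and those of stage 4 at 8.55 in replicate 1, 6.92 in the averaged replicate and 7.32 in replicate 3. Every stage 4 value exceeded every stage 3 value, and replicate 1 lay far above the other two. The fitted difference was 1.11 (SE 0.29, 95% interval 0.49 to 1.73, limma adjusted p = 0.973). It was 0.69 without stage 4 replicate 1, 0.44 without background correction and 2.16 with plain subtraction. The clone was above background on all 4 stage 4 arrays and on 1 of stage 3. Mean signals of the earlier stages, 6.49 ± 0.38 (SD, n = 4) at stage 1 and 6.32 ± 0.10 (SD, n = 4) at stage 2, were near that of stage 3 (6.43 ± 0.23, n = 4).

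Among clones lower at stage 4, Myt01-002A05 gave 8.83, 8.37, 8.29 and 8.46 at stage 3. Its stage 4 signals were 7.46 in replicate 1, 8.16 in the averaged replicate and 6.94 in replicate 3. The stages did not overlap, although the averaged replicate came close to the stage 3 range. The fitted change was -0.95 (SE 0.24, 95% interval -1.48 to -0.42, limma adjusted p = 0.973). Without background correction it was -0.56. Without the averaged replicate it was -1.31, with a limma adjusted p of 0.0474. Both late stages lay above stage 2 (6.41 ± 0.12, SD, n = 4) and stage 1 (6.69 ± 0.26, SD, n = 4), as their means were 8.49 ± 0.24 (SD, n = 4) at stage 3 and 7.52 ± 0.61 (SD, n = 3) at stage 4.

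Myt01-006E06 was at 7.44, 7.19, 7.23 and 6.69 in the stage 3 females and at 6.08, 6.72 and 6.35 in those of stage 4, of which 6.72 was the averaged replicate. The groups overlapped by the lowest stage 3 and the highest stage 4 value. The clone was above background on 2 of the stage 3 arrays and not well above background on any of stage 4. Its fold was therefore taken against the higher of its own signal and the lowest signal above background on each array. The point estimate was then 1.37-fold lower at stage 4, which allows for low signal but not for the spread between replicates. The fitted change was -0.75 (SE 0.21, 95% interval -1.20 to -0.31, limma adjusted p = 0.973). Changes smaller than 1.37-fold also lay inside this interval. The change of this clone was -0.25 without background correction and -1.54 with plain subtraction.

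**Figure D3:**
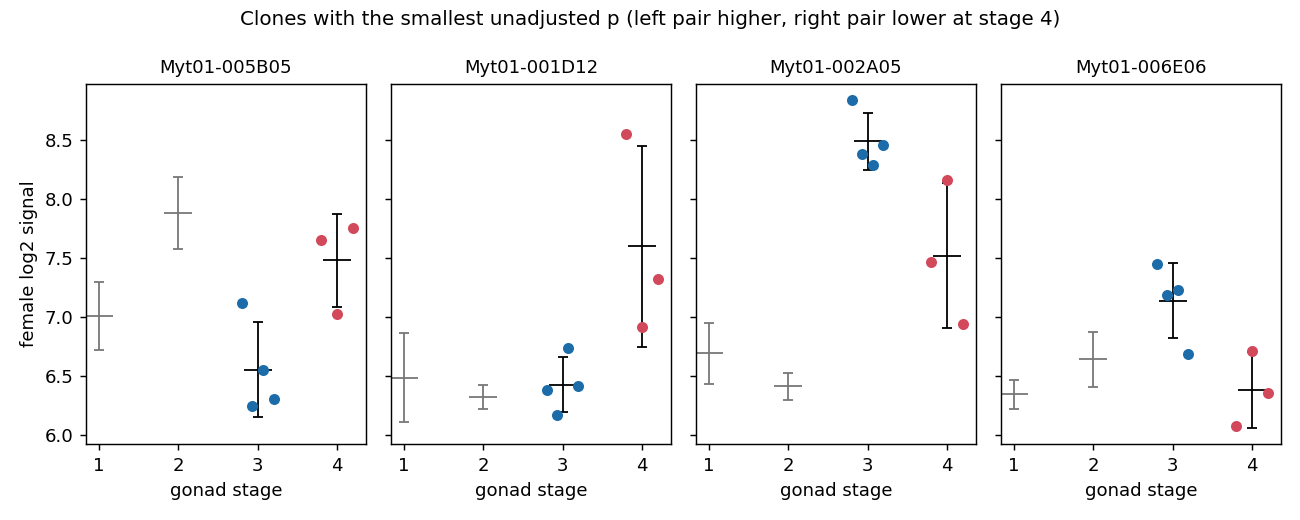
Female log2 signal of the clones with the smallest unadjusted p between stages 4 and 3, with points for the replicates of stage 3 (blue) and stage 4 (red) and bars for the mean ± SD of every stage (n = 4, 4, 4 and 3). Stage 3 and 4 points of Myt01-001D12 and Myt01-002A05 do not overlap, whereas those of Myt01-005B05 and Myt01-006E06 do.

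The 72 clones at an unadjusted p under 0.05 are described as groups, without a test, since this p chose them. The 39 higher clones had a median change of 0.79 (0.30 to 1.39), and 13 of them had replicates fully apart. Their median female signals were 7.01, 6.80, 6.55 and 7.42 from stage 1 to stage 4. The 33 lower clones had a median change of -0.53 with 8 apart, and median signals of 6.63, 6.64, 7.47 and 6.73. The higher group had its lowest median at stage 3 and its highest at stage 4. The lower group peaked at stage 3 and lay near its early medians again at stage 4. As the clones were chosen for their difference between stages 3 and 4, no course over the stages is read from these medians. Of the 39, 5 were above background on all 8 arrays and 4 on none.

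The males of the same arrays changed in the same direction for most of these clones. Of the 39, the male change had the same sign for 39 (median 0.38), and of the 33 for 30 (median -0.26). Over all 1920 clones the sign was the same in both sexes for 1375 (71.6%), and since these clones were chosen for their female change on the same arrays, nothing particular to them is read from the counts. Male and female signals of an array share its spots and hybridisation, and the part of this in the likeness of the sexes was not tested. Over all clones, male and female profiles of the same array correlated at r = 0.836 to 0.973.

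Whether the female gland changed otherwise than the male gland was tested on the ratio of female to male signal, which compares both sexes on the same spots. In limma 0 clones (0%) passed an adjusted p under 0.05, with a smallest adjusted p of 0.997. The B statistic exceeded 0 for 0 clones, and 27 clones (1.41%) had an unadjusted p under 0.05, 19 with the female change above the male one and 8 below it. The interval of the difference in change, which reached a median of 0.44 log2 units to either side, lay within 2-fold in both directions for 1565 clones. Ratios of the stages did not overlap for 73 clones (3.8%), and male signals did not for 69 (3.59%). This outcome depended on how single replicates were treated. Without the averaged stage 4 replicate 85 of the 1920 clones were called, 31 with the female change above the male one and 54 below it. The stage 4 replicates left in that fit, 1 and 3, both had the female in Cy3. With array weights, which give less weight to replicates far from the fit, 353 of the 1920 clones were called (182 above and 171 below, smallest limma adjusted p 0.00679).

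The clones with the smallest unadjusted p in each direction of this difference did not pass the test either, but all of them did with array weights (limma adjusted p 0.00679 to 0.0155). Without background correction their differences were 0.32 to 0.36 above 0 and -0.39 and -0.30 below it. With plain subtraction they were 1.48 for Myt01-001D12, 0.63 for Myt01-002E06, -1.18 for Myt01-007E01 and -0.98 for Myt01-013E05. Myt01-001D12, described above, had a female minus male change of 0.78 (SE 0.27, 95% interval 0.20 to 1.36, limma adjusted p = 0.997), which was 0.47 without stage 4 replicate 1. Its female over male log2 ratio was 0.11, -0.35, -0.36 and -0.11 at stage 3 and 1.58, -0.18 and 0.77 at stage 4, with the averaged replicate second. The lowest stage 4 ratio lay within the stage 3 range.

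Myt01-002E06 had a difference in change of 0.52 (SE 0.19, limma adjusted p = 0.997). Its female signal differed little between the stages, with 7.67 ± 0.27 (SD, n = 4) at stage 3 and 7.67 ± 0.16 (SD, n = 3) at stage 4. The male signal was 7.94 ± 0.33 (SD, n = 4) at stage 3 and 7.48 ± 0.23 (SD, n = 3) at stage 4.

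In the other direction, Myt01-007E01 had a difference in change of -0.71 (SE 0.24, 95% interval -1.24 to -0.18, limma adjusted p = 0.997). Female over male log2 ratios were 0.59, -0.30, 0.66 and 0.27 at stage 3, and -0.43 in replicate 1, -0.36 in the averaged replicate and -0.30 in replicate 3 of stage 4. The stages did not overlap, but stage 3 replicate 2 and stage 4 replicate 3 were equal to both decimals. For Myt01-013E05 the difference was -0.64 (SE 0.25, limma adjusted p = 0.997, and -1.12 with an adjusted p of 0.0215 without the averaged replicate), with ratios of 0.46, 0.78, 0.46 and 0.42 at stage 3 and -0.60, 0.75 and -0.63 at stage 4. Here the averaged replicate stood within the stage 3 values, whereas stage 4 replicates 1 and 3 stood below all of them.

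The 7 female profiles did not group by stage. Over 1920 clones, Pearson's r was 0.750 to 0.915 among the 6 pairs within stage 3 (median 0.872), 0.823 to 0.902 among the 3 pairs within stage 4 (median 0.834) and 0.771 to 0.931 among the 12 pairs between the stages (median 0.855). Between females of stages 3 or 4 and those of stages 1 or 2 it was 0.550 to 0.839. These correlations are across clones, which are not independent replicates.

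A replicate of each stage had most of its higher correlations with the other stage. The averaged stage 4 replicate correlated at 0.912, 0.931 and 0.925 with stage 3 replicates 1 to 3, against 0.834 and 0.823 with stage 4 replicates 1 and 3. Conversely, stage 3 replicate 4 correlated at 0.884 and 0.863 with stage 4 replicates 1 and 3, and at 0.750, 0.838 and 0.793 with the other stage 3 replicates. These replicates correlated at 0.830 with each other, so that neither was closer to every replicate of the other stage. On the male channel of the same arrays, r between the averaged replicate and stage 3 replicates 1 to 3 was 0.911 to 0.936. With stage 4 replicates 1 and 3 it was 0.880 and 0.877. Male r of stage 3 replicate 4 was 0.852 and 0.830 with stage 4 replicates 1 and 3. With the other stage 3 replicates it was 0.770, 0.803 and 0.825.

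**Figure D4:**
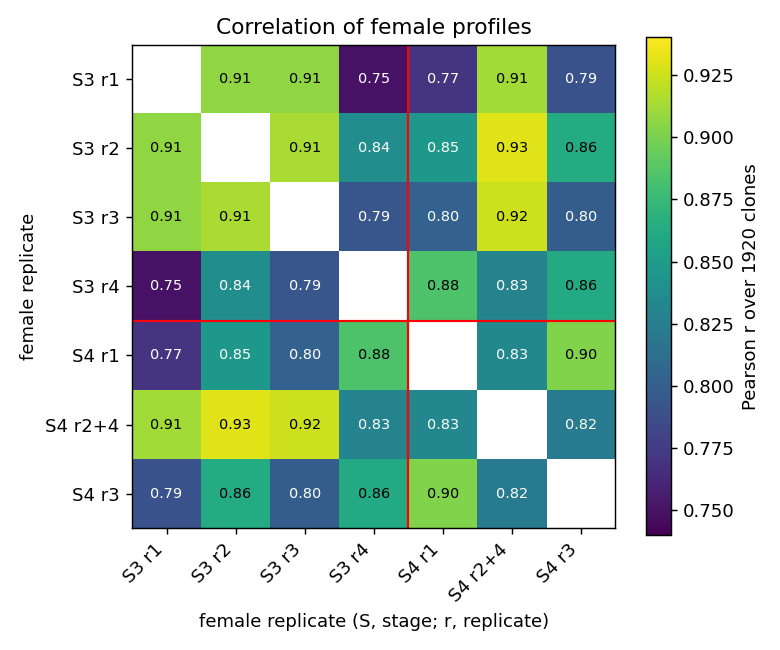
Pearson's r over 1920 clones between the female profiles of stage 3 (S3, 4 replicates) and stage 4 (S4, 3 replicates), with red lines between the stages. The averaged stage 4 replicate (S4 r2+4) has its highest values with stage 3 replicates 1 to 3, and stage 3 replicate 4 has its highest value with stage 4 replicate 1.

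The first principal component of these 7 profiles held 46.9% of their variation and the second 15.8%. Scores on the first were -14.8, -6.09, -11.0 and 13.8 for stage 3 replicates 1 to 4. For stage 4 they were 14.4 in replicate 1, -8.81 in the averaged replicate and 12.5 in replicate 3. Thus 3 females of stage 3 and the averaged stage 4 replicate lay on one side, and the other 3 replicates on the other. Some measures differed along this axis. The replicates with scores above 0 had 19.4%, 23.2% and 24.2% of clone spots above background. Those below 0 had 23.7% to 48.4%, so that the ranges overlapped. Duplicate spots correlated at 0.866 to 0.896 in the former and at 0.918 to 0.962 in the latter, without overlap. Female and male profiles of one array correlated at 0.932 to 0.973 in the former and at 0.836 to 0.908 in the latter. Both dyes were present on both sides. The part of array signal in this axis was not tested.

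**Figure D5:**
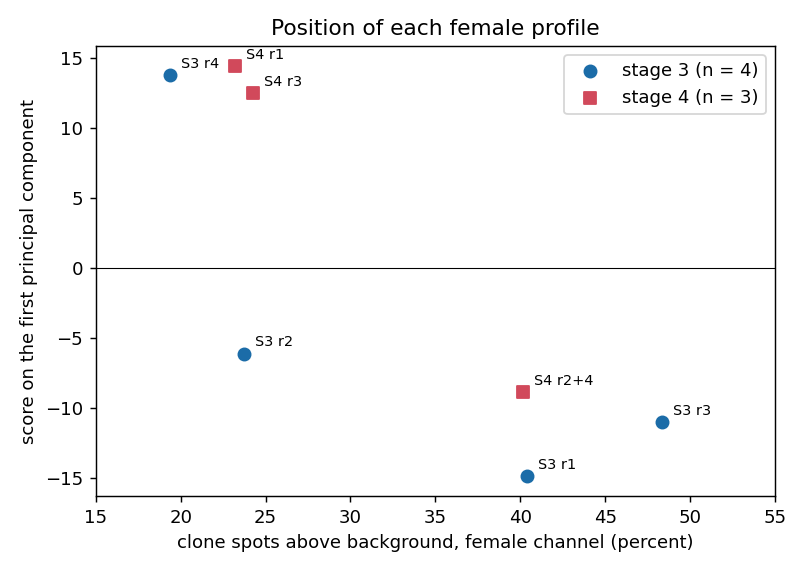
Score of each female profile on the first principal component against the percent of clone spots above background in the female channel, for stage 3 (circles, n = 4) and stage 4 (squares, n = 3). Scores above 0 belong to stage 3 replicate 4 and stage 4 replicates 1 and 3, which all lie below 25% on the horizontal axis, as does stage 3 replicate 2.

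The clones with the heaviest weight on this axis, named after their values were seen, give its size. Myt01-016G08 was at 7.27, 9.11, 7.20 and 10.00 in the stage 3 females and at 10.60 in replicate 1, 7.26 in the averaged replicate and 10.06 in replicate 3 of stage 4. The spread between females of 1 stage (SD 1.39 at stage 3 and 1.79 at stage 4) exceeded the fitted difference between the stages, 0.82 (SE 0.90, 95% interval -1.13 to 2.77, limma adjusted p = 0.999). That difference was 0.23 without stage 3 replicate 3 and 1.93 without the averaged replicate. Male signals of this clone were 9.67 to 12.5 at stage 3 and 9.27 to 11.9 at stage 4, above the female signal in 4 of the 7 replicates.

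Myt01-003D11 ran the other way, with 10.80, 9.93, 9.80 and 7.26 at stage 3 and 7.12, 10.27 and 7.70 at stage 4. Its fitted change was -1.07 (SE 0.78, 95% interval -2.77 to 0.63, limma adjusted p = 0.973), which was -0.46 without stage 4 replicate 1 and -2.31 without the averaged replicate. All 7 females of stages 3 and 4 lay above the 8 females of stages 1 and 2, whose signals were between 6.01 and 7.01. The lowest late signal (7.12) was close to the highest early one (7.01), and the clone was above background on 6 of the 8 arrays. Within stage 3 it varied over more than 3 log2 units.

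Leaving out 1 replicate at a time changed the count of calls in 2 of 7 cases. Without stage 3 replicate 4, 3 clones passed an adjusted p under 0.05 in limma (193 at an unadjusted p under 0.05). Myt01-010C01 was then lower at stage 4 by a log2 change of -1.46 and Myt01-014G06 by one of -1.29, while Myt01-016B01 was higher by 1.62, each with an adjusted p of 0.0371. With all replicates Myt01-014G06 was at -0.80 and Myt01-016B01 at 1.27, and none of the 3 passed. These identifiers are given because the count is small and were chosen after their values were seen.

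Leaving out the averaged stage 4 replicate left replicates 1 and 3, both with the female in Cy3. The dye term then rested on the other stages. In this fit 5 clones passed (256 at an unadjusted p under 0.05). Of these, Myt01-002A05 was lower (-1.31), and Myt01-005D12, Myt01-011D04, Myt01-011F02 and Myt01-013H05 were higher at stage 4 by 1.50, 1.44, 2.04 and 2.18, with limma adjusted p values of 0.0474 to 0.0490. With all replicates the higher clones changed by 0.78, 0.80, 1.14 and 1.16, and none passed. In the same order, these higher clones were above background on 4, 2, 5 and 2 of the 8 arrays of stages 3 and 4. Their changes thus rest in part on signals not well above background and are not read as measured folds. No clone was called in both of these fits (0 in common). Leaving out any other replicate gave 0 calls. The share of variation between the stages was 30.7% without stage 3 replicate 4 and 31.3% without the averaged replicate, and 13.2% to 18.0% without any other replicate. The labels give no ground to leave either of these replicates out. Of the 8 arrays, stage 3 replicate 4 had the lowest share of clone spots above background (19.4%) and the lowest duplicate-spot correlation (0.866). The averaged replicate had 40.1% and 0.922. Whether array quality bears on these counts was not tested.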

How the data were processed

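Gland RNA of single mussels was hybridised on 16 two-colour cDNA arrays, 4 per gonad stage, with 1 female against 1 male on each. The scanner files deposited by the authors hold foreground and local background intensity per spot in both channels, on a linear scale and without normalisation. The authors' deposited value table of log2 ratios per spot was used only as an alternative. Set against the scanner files, its values ran as female over male (r = 0.930 to 1.00 over clone spots), its column medians were -0.0207 to 0.0110, and values in 7 of the 16 columns had only 2 decimals. The submitters' processing notes name limma, with a version not given in the sources used here.

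Of 4560 spots per array, 3840 hold the 1920 clones, 608 are blank and 112 are alignment controls. In limma 3.58.1 (R 4.3.3), intensities were background-corrected by normexp (offset 50). Arrays were normalised by loess within arrays, in which only clone spots took part, and by Aquantile between arrays. The female channel was taken by the dyes in the labels and spots of a clone were averaged. A linear model with 1 coefficient per stage and the dye of the female was fitted to the 15 female replicates of all stages, which share 1 estimate of the spread (lmFit and eBayes, 10 residual degrees of freedom), and stage 4 minus stage 3 was tested two-sided with Benjamini-Hochberg adjustment at 0.05. The female minus male change was the same contrast of female over male log2 ratios. Dim clones were kept. The fit was tested on simulated data. The number of arrays limits the precision. Labels say that each RNA came from 1 animal, so that the p-values measure the spread between animals and arrays together.

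Replicate numbers in the labels did not pair the samples. The correlation of deviations from the stage means between samples of the same number was -0.314, 0.0599 and -0.240, within the range of the other pairs (-0.491 to 0.417), and the fits have no replicate block. The members and lists were chosen with earlier results of these data known. At most 2 clones per direction and comparison were named by rule: those with the largest change at an adjusted p under 0.05 and without overlap or, as none passed, those with the smallest unadjusted p. A further 9 clones, which lead the first principal component or passed only without 1 replicate, were named after their values were seen. The lists of gene groups and of marker genes that had been drawn up could not be matched to clones and give no result. Alternatives changed the background correction, the normalisation within and between arrays, the dye term, the arrays in the fit, array weights, the eBayes prior, a filter on dim clones, the count of averaged arrays and each replicate in turn. The authors' comparisons were not used. No column of samples outside the series (0) was found.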

Additional observations from a re-analysis of the deposited data

Results flagged for a closer look

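Of 57 groups of 4 values examined for a value far from the others, 1 had such a value, where chance gives about 3. It was the female over male log2 ratio of Myt01-013E05 in stage 3 replicate 2, which was 0.78 against 0.42 to 0.46 in the other stage 3 replicates.

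Alignment controls were not used in any comparison, and their spots were bright in the female channel. Their median intensity over background was 524, 529.5, 732 and 395.5 on the arrays of stage 3 replicates 1 to 4, and 207, 666.5, 310.5 and 446.5 on those of stage 4 replicates 1 to 4. The 95th percentile of blank spots was 14.0 to 25.7 on the same arrays.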

How the results depend on the processing

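In 22 of 24 alternatives 0 clones were called in the female comparison, and 42 to 274 had an unadjusted p under 0.05. The exceptions were the fits without stage 3 replicate 4 (3 clones) and without the averaged stage 4 replicate (5 clones), so that leaving out replicates gave 0 to 5. For the female minus male change, 19 of 21 alternatives gave 0 clones, and leaving out replicates gave 0 to 85. With array weights, 353 of the 1920 clones were called (182 with the female change above the male one, 171 below it), while the female comparison gave 0 (274 at an unadjusted p under 0.05, smallest adjusted p 0.121, 4 clones with a B over 0). In the female fit the weights were lowest among the 7 replicates for the averaged stage 4 replicate (0.401) and stage 3 replicate 4 (0.405). The ratio fit had its own weights, which are not given here. The cause of the calls with array weights was not tested. With the replicate number as a block, 0 clones were called for the female change (82 at an unadjusted p under 0.05) and 0 for the female minus male change (49), so that the block changed no call, while it gave 17 clones between stages 4 and 1. The difference in the share above background, -3.76 points, became 1.01 with 1 background SD and was -8.29 without stage 3 replicate 4, -9.23 without the averaged replicate and 1.38 without stage 3 replicate 3, the range without single replicates being -9.23 to 1.38. Every clone named, by rule or after its values were seen, kept its direction under all alternatives that gave a value. Myt01-006E06, Myt01-011D04 and Myt01-013H05 had none without dim clones. Array weights gave 281, 42 and 329 clones for stages 4 and 2, 4 and 1, and 3 and 2. The median change over all clones moved by at most 0.03 in the female comparison. Low signal limits what was measured, since 599 clones were above background on none of the 8 arrays.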
